A study of Mus musculus with 16 samples.

Results

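Complement is the blood's set of soluble defence proteins, most of them secreted by hepatocytes. This account covers 30 genes of the complement cascade and its lectin pathway in mouse liver, chosen by name: components of the classical, lectin, alternative and terminal steps, soluble and membrane-bound regulators, and the receptors for the peptides the cascade releases. All 30 had a probe on the array, and 28 of them could be tested among 19382 genes in all. Each gene was read from its brightest probe in liver. The 2 that could not be tested were C5ar1, the receptor for the C5a peptide, and Cfd, the serine protease factor D.

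The livers came from C57BL/6BomTac mice whose mothers inhaled either filtered air (control) or about 42 mg/m3 UV-Titan, a nano-sized titanium dioxide with a surface coating. Exposure of the whole body lasted 1 hour a day from gestation day 8 to 18. There were 3 female controls (replicates 25, 35 and 40), 5 UV-Titan females (2, 8, 10, 16 and 21), 4 male controls (31, 33, 41 and 43) and 4 UV-Titan males (3, 4, 5 and 17). Each liver was hybridised with universal mouse reference RNA on 1 two-colour array. The labels give neither the age at which a liver was taken, newborn on postnatal day 2 or weanling on days 23 to 24, nor the litters, so tests measure the spread between these livers, some of which may share a mother. In whole liver, fewer cells of a type and less RNA per cell cannot be told apart.

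The classical route starts when C1q, a protein of 3 chains, binds antibody or debris and activates the proteases C1r and C1s, which cut C4 and C2. The lectin route reaches the same cut through mannose-binding lectins and ficolins with the MASP proteases, and the alternative route amplifies C3 cleavage through factor B, factor D and properdin. The routes meet at C3, and C5 to C9 then form the membrane attack complex. In liver, hepatocytes make most of these proteins and macrophages, including the resident Kupffer cells, make C1q.

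The promoters of 5 genes from the 2 sources compared below are printed here and do not stand for the other members. The list of RefSeq starts (GRCm38.p6) used here held 22 of the 30 genes. C1qa, C2, C4b, Cfb, Cfi, Masp1, Serping1 and Clu had no entry in that list. The window searched was the 250 bases before the start, on the coding strand. Capitals mark TTGCNNAA (a site of C/EBP factors of liver and myeloid cells) in C3, the HNF1 site (of a liver factor) in C4bp and Hc, and GAGGAAG (a site of PU.1, a myeloid factor) in C1qc, read on both strands. C1qb held none of the motifs searched. Nor did C1ra, C6, C8b, Mbl1, Mbl2, C3ar1, C5ar1, Cfp, Cfd, Cd55 and Cd59a, whose promoters are not printed. C3 lies at chr17:57228137-57228386, C4bp at chr1:130661619-130661868, Hc at chr2:35061413-35061662, C1qc at chr4:136892915-136893164 and C1qb at chr4:136886201-136886450, all on the minus strand.
C3: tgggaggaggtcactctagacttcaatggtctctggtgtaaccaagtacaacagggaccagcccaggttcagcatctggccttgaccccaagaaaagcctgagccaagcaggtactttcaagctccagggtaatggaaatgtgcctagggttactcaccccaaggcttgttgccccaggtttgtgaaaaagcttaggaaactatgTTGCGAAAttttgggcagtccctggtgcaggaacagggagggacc
C4bp: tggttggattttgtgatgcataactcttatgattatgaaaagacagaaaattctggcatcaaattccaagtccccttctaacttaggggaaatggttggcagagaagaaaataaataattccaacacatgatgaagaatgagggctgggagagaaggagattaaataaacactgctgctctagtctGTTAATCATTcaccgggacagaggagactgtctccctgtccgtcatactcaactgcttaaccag
Hc: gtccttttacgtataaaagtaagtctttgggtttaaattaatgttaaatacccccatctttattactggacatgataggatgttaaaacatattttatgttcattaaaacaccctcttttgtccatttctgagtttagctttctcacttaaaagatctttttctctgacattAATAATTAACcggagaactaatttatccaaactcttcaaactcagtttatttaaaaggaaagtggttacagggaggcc
C1qc: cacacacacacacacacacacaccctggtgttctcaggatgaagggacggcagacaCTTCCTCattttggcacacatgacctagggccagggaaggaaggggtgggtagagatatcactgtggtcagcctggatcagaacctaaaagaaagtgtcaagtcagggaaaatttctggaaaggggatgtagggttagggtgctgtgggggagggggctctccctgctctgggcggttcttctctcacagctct
C1qb: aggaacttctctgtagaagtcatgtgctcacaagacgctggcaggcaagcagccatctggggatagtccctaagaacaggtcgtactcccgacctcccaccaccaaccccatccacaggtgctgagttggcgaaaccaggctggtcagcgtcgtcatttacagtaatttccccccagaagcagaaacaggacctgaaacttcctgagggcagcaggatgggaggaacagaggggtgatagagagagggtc

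Of the 13 hepatocyte-made genes with a listed start, the HNF1 letters were found in 2 (C4bp and Hc) and the C/EBP letters in 3 (C1s, C3 and C9). CAAAGNNCA, a site of the liver factor HNF4, was found in C1s and C8g, and TTCNNNGAA, a site of STAT factors, in C8a and Masp2. The PU.1 letters were found in C1qc, and 3 times in Fcna, a ficolin of macrophages. The matches within a window did not overlap each other except in Fcna, where the last match began on the final base of the match before it. Among 27025 genes with a listed start the HNF1 letters occurred in 0.44%, C/EBP in 10.8%, HNF4 in 6.29%, STAT in 8.13% and PU.1 in 12%. A match describes letters and is not evidence of binding.

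The dyes named in the sample labels contradict the labelling protocol, so the signals were used to settle which dye held liver. Hepatocyte markers were brighter in red on all 16 arrays (median raw log2 red over green 5.07 to 6.19), and Xist and Ddx3y in red matched the labelled sex on all 16. Liver is therefore read as red and the reference as green. Values below are log2 liver over reference after loess within each array, or the liver channel alone after quantile normalisation between arrays, which is named each time. On each array 57.7% to 67.1% of spots in the liver channel exceeded the background clearly (the scanner's mark), and the number of arrays limits the precision. Pancreas markers were high in male control replicates 31 and 33, and muscle and fat markers in male UV-Titan replicate 5.

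In female offspring all 28 tested complement genes had a higher mean ratio after UV-Titan, and none passed the test. The median change was 0.24 log2, against 0.02 over all genes, of which 58.5% were above 0. In limma 0 of 28 had an adjusted p below 0.05 (0% of all genes), with 0.616 the lowest. At an unadjusted p below 0.05 there were 13 members, all higher, against a background of 5.4% of genes. The groups did not overlap for 5 members, all higher, against 3.17% of genes. Those 5 were Mbl1, Cfb, Clu, Serping1 and Cd59a. Single livers bore on the counts: without female control 25 there were 25 of 28 higher and 4 at an unadjusted p below 0.05, without female control 40 there were 26 and 8, and without UV-Titan female 8 there were 28 and 7. The shares of all genes at that p, in either direction, were 5.11%, 7.91% and 4.34%, against 6.68% with all livers. With any 1 other female liver left out, 28 of 28 were higher. Leaving out a male liver cannot change a mean difference between the female groups.

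The liver channel on its own showed less of this. After quantile normalisation 19 of 28 members were higher, against 49.7% of all genes, with a median of 0.06 log2. None of the 28 had an unadjusted p below 0.05, against 3.11% of genes. The groups did not overlap for 1 member, C2, against 1.04% of genes that were higher. With each liver channel centred on its own median instead, 27 of 28 were higher with a median of 0.35 log2, but all genes moved by 0.14 too and 74.1% of them were above 0. In the reference channel, which carried the same RNA throughout, 3 of 28 were higher and the median was -0.15 log2 after centring, against -0.01 over all genes.

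**Figure D1:**
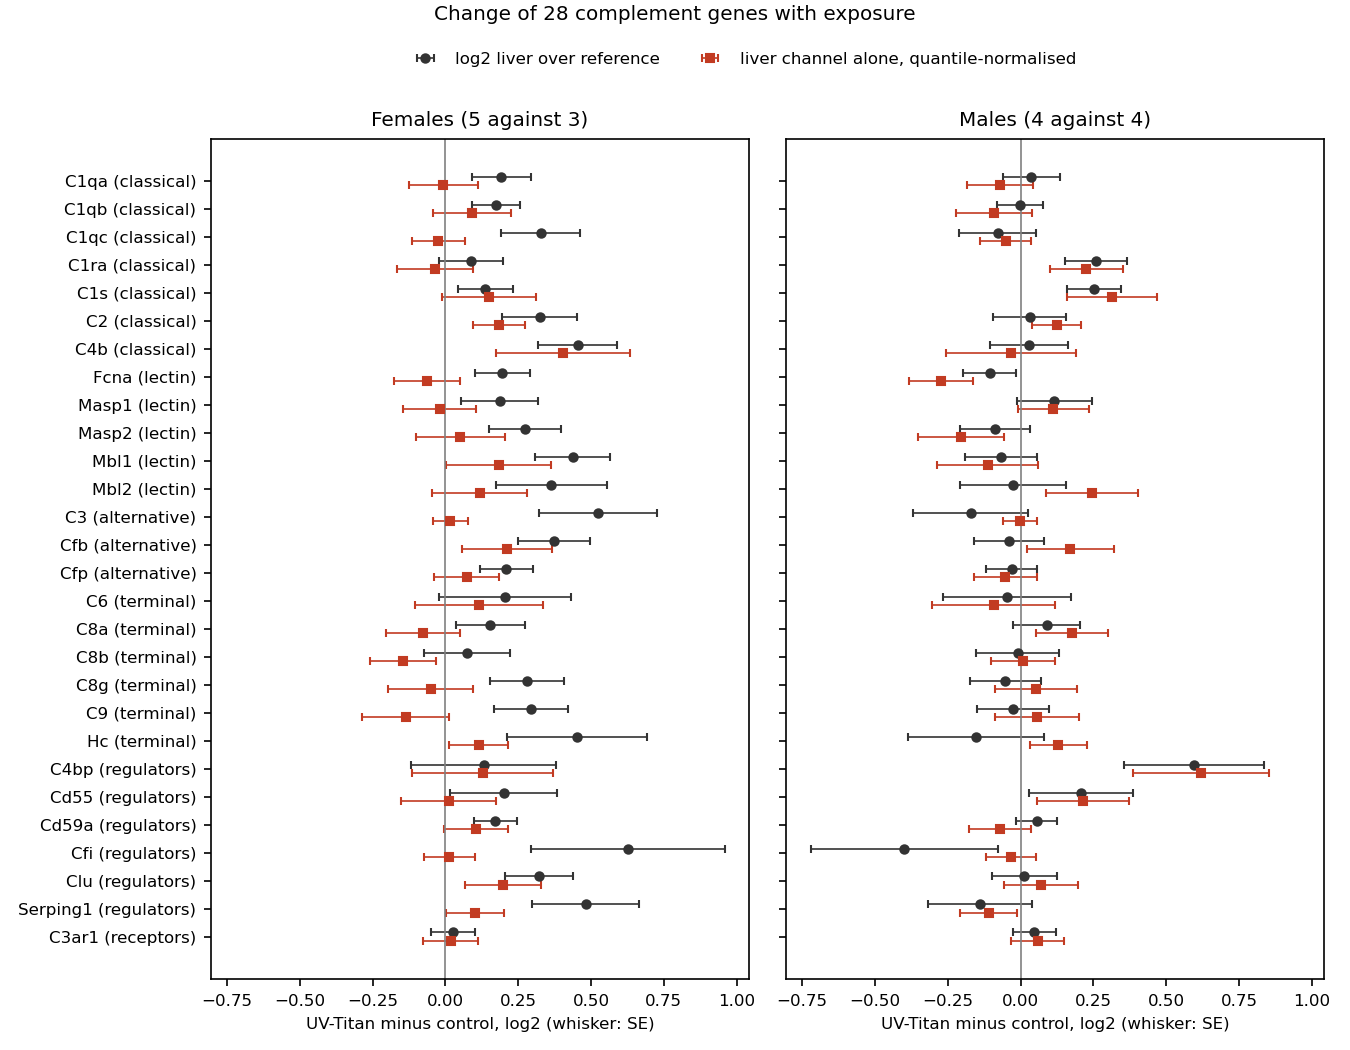
Difference between UV-Titan and control (log2, x axis) for 28 genes in order of role (y axis), in females and males; circles are liver over reference, squares the liver channel alone after quantile normalisation, whiskers the SE. In females all circles lie above 0 and most squares lie nearer to 0; in males 12 of 28 circles lie above 0.

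In the classical route, C4b, the C4 component, had the largest difference of the members in the female liver channel. It stood at 4.14, 3.87 and 4.31 in the female controls and at 4.66, 4.75, 4.65, 4.31 and 4.43 in UV-Titan females. The lowest UV-Titan female, replicate 16, was level to 2 decimals with the highest control, replicate 40, at 4.31. UV-Titan minus control was 0.45 ± 0.14 log2 (SE, as for each difference below; limma adjusted p = 0.617) by ratio, 0.40 ± 0.23 for liver alone and -0.05 ± 0.16 for the reference. Its male values were 4.49, 4.49, 4.42 and 4.43 in controls and 4.66, 4.48, 4.74 and 4.07 in UV-Titan. The probe for C4b may also bind C4a, a near-identical copy.

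C2, the protease cut beside C4, was 0.32 ± 0.13 log2 by ratio and 0.18 ± 0.09 in the liver channel in females. In the quantile-normalised liver channel C2 read 14.04, 14.09 and 14.01 in the female controls and 14.11, 14.28, 14.19, 14.31 and 14.28 in the UV-Titan females. Each UV-Titan female was above each control, with UV-Titan replicate 2 the closest. A second C2 probe gave 0.35 log2 by ratio in females. C1ra and C1s, the protease pair of C1, were 0.09 ± 0.11 and 0.14 ± 0.10 log2 in females.

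The 3 C1q chains, made by macrophages, had higher means by ratio in females, while the liver channel depended on its scaling. C1qa read 3.96, 4.19 and 4.01 in the female controls and 4.27, 4.53, 4.32, 4.11 and 3.99 in UV-Titan females, with replicate 35 the highest control and replicates 16 and 21 of the UV-Titan group below it. For C1qb the values were 3.68, 3.60 and 3.66 in controls and 3.97, 3.80, 3.80, 3.87 and 3.65 in UV-Titan, where only replicate 21 fell within the control range. C1qc had 3.15, 3.54 and 3.25 in controls and 3.69, 3.94, 3.54, 3.46 and 3.57 in UV-Titan, with replicate 35 of the controls level with or above 2 UV-Titan livers. By ratio the chains differed by 0.19 ± 0.10, 0.17 ± 0.08 and 0.33 ± 0.14 log2 (SE; limma adjusted p = 0.791, 0.749 and 0.697). After quantile normalisation the liver channel differences were -0.01 ± 0.12, 0.09 ± 0.13 and -0.02 ± 0.09 log2, and -0.14 ± 0.11, -0.01 ± 0.14 and -0.33 ± 0.14 for the reference. With the liver channel centred on its median instead they were 0.27 ± 0.23, 0.36 ± 0.22 and 0.26 ± 0.19 log2, on arrays where all genes moved by 0.14. The 3 genes are neighbours: their probes lie at chr4:136274931-136274990 (C1qa), chr4:136259100-136259159 (C1qb) and chr4:136268288-136268347 (C1qc) in build mm7.

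Males gave C1qa values of 4.33, 4.15, 4.13 and 4.17 in controls and 4.24, 4.25, 4.33 and 4.11 in UV-Titan. C1qb was 3.71, 3.64, 3.75 and 3.88 in male controls and 3.87, 3.82, 3.55 and 3.73 in UV-Titan, and C1qc was 3.90, 3.55, 3.57 and 3.52 in controls and 3.63, 3.58, 3.81 and 3.21 in UV-Titan. The groups overlapped for each chain. UV-Titan minus control in males was 0.04 ± 0.10, -0.0025 ± 0.08 and -0.08 ± 0.13 log2 by ratio (SE; limma adjusted p = 0.986, 0.998 and 0.975).

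In the lectin route, Mbl1, a mannose-binding lectin, had the smallest p of the members in females. Its ratio was 4.32, 4.39 and 4.50 in the female controls and 4.86, 5.11, 4.88, 4.61 and 4.73 in the UV-Titan females. Each UV-Titan female lay above each control, with replicate 8 the highest. The difference was 0.44 ± 0.13 log2 (SE; limma adjusted p = 0.616) by ratio, 0.18 ± 0.18 for liver alone and -0.22 ± 0.19 for the reference. Males had 4.98, 4.70, 4.74 and 4.70 in controls and 4.75, 4.71, 5.03 and 4.36 in UV-Titan, and the groups overlapped. Mbl2, the second mannose-binding lectin, was 0.36 ± 0.19 log2 in females by ratio and 0.12 ± 0.16 in the liver channel. Masp1 and Masp2, the proteases that the lectins activate, were 0.19 ± 0.13 and 0.27 ± 0.12 log2, and Fcna was 0.19 ± 0.09. Their other probes did not all follow, with -0.01 and 0.24 log2 for 2 further Masp1 probes and 0.17 and -0.01 for 2 further Masp2 probes.

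In the alternative route, C3, the protein on which the routes converge, differed between the female groups more by ratio than in the liver channel. C3 read 4.45, 4.64 and 4.74 in the female controls and 5.16, 5.36, 5.28, 4.62 and 5.25 in the UV-Titan females. Replicate 16 fell among the controls while the other 4 UV-Titan females were above them. C3 was 0.52 ± 0.20 log2 (SE; limma adjusted p = 0.696) by ratio, 0.02 ± 0.06 in the liver channel after quantile normalisation, 0.38 ± 0.20 after median centring and -0.43 ± 0.22 in the reference. The probe, at chr17:55414567-55414626 in build mm7, ranked 2 of 41174 probes in liver signal, and quantile normalisation leaves such a probe almost the same value on each array. A second C3 probe gave 0.21 log2 by ratio.

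The raw signals of the channels differed in how they varied. Raw liver signal of C3 lay between 437207 and 500840 on the 16 arrays. In the reference channel the female controls had 12237, 13116 and 10117 and the UV-Titan females 8289, 8783, 7591, 14537 and 7442. Male controls had 9480, 8118, 8622 and 7322 and UV-Titan males 7872, 9251, 8615 and 16025. The reference signal was thus highest on the 3 female controls, on UV-Titan female 16 and on UV-Titan male 17, the arrays with the lowest C3 ratios. Replicates 25, 16 and 17 shared slide 5.

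Cfi, the soluble protease factor I that degrades C3b and C4b, had the same set of bright reference arrays as C3. Its ratio was 7.22, 7.88 and 7.75 in the female controls and 8.42, 8.82, 8.46, 7.26 and 8.25 in the UV-Titan females, with replicate 16 near the lowest control. Males had 8.56, 8.50, 8.28 and 8.20 in controls and 8.38, 8.15, 8.49 and 6.92 in UV-Titan, where replicate 17 was the lowest of the 16. The reference signal of Cfi was 316, 241 and 229.8 in female controls and 125, 126, 155, 427 and 148 in UV-Titan females. It was 134, 152, 129 and 164 in male controls and 163, 168, 139 and 399 in UV-Titan males. The 5 arrays bright for C3 were also the 5 brightest for Cfi in the reference channel. UV-Titan minus control for Cfi was 0.63 ± 0.33 log2 in females and -0.40 ± 0.32 in males by ratio (SE; limma adjusted p = 0.79 and 0.962), and 0.01 ± 0.09 and -0.03 ± 0.08 in the quantile-normalised liver channel. Median centring of the liver channel gave 0.34 ± 0.21 and -0.11 ± 0.20 log2. Without UV-Titan male 17 the male difference was -0.04 log2 for Cfi, and for C3 it was 0.08 in place of -0.17.

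**Figure D2:**
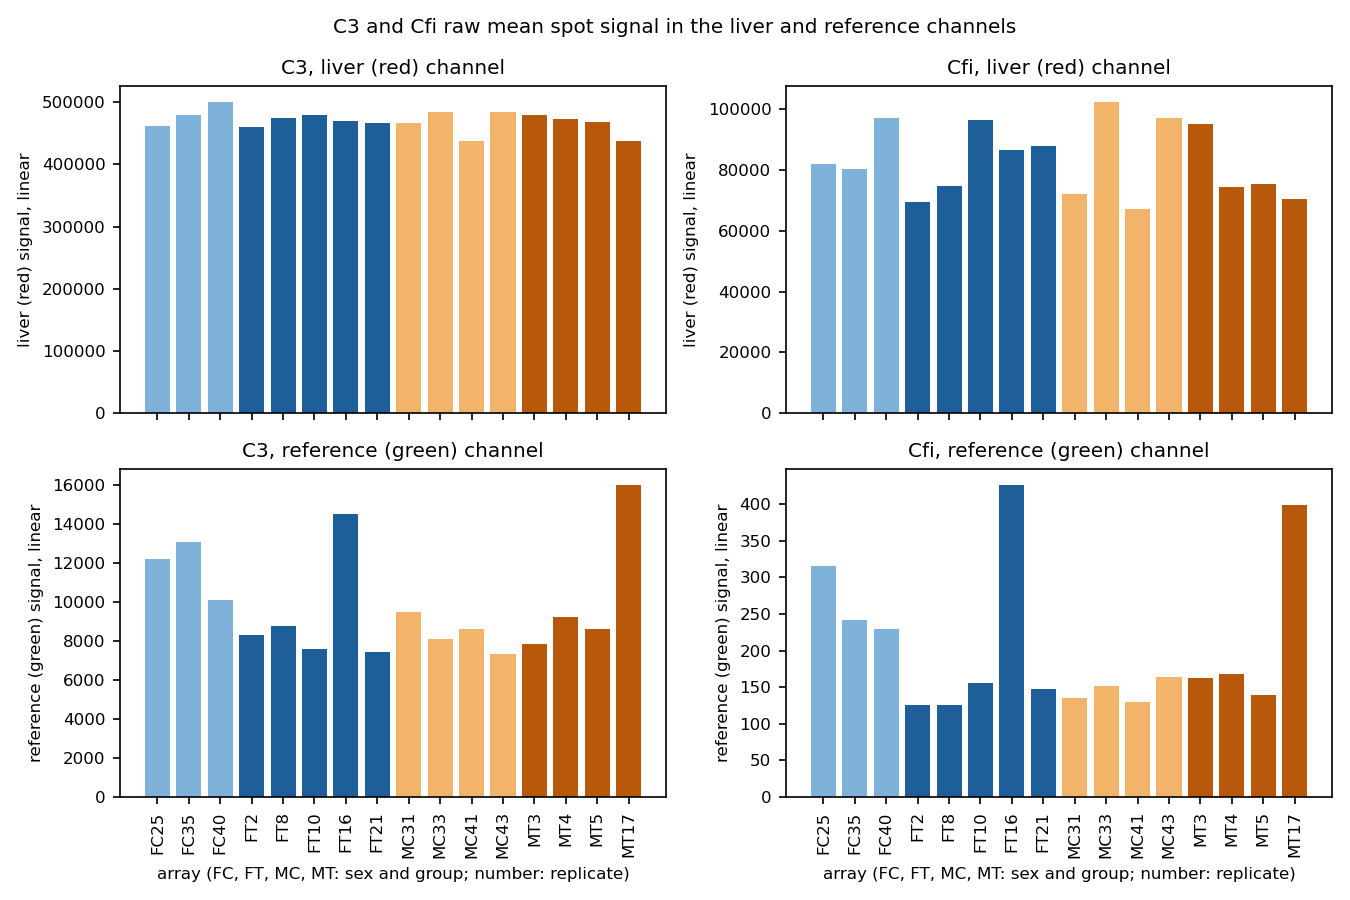
Raw mean spot signal (linear y axis from 0) of C3 and Cfi in the liver and reference channels on each of the 16 arrays (x axis, coded by sex and group with the replicate number). The reference signal is high on FC25, FC35, FC40, FT16 and MT17, where Cfi ranged from 229.8 to 427, while the liver signals show no such set.

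Cfb, factor B of the alternative convertase, did not overlap between the female groups. Its ratio was 3.88, 3.99 and 3.96 in female controls and 4.34, 4.55, 4.26, 4.18 and 4.25 in UV-Titan females, with UV-Titan replicate 8 the highest. The difference was 0.37 ± 0.12 log2 (SE; limma adjusted p = 0.656) by ratio and 0.21 ± 0.15 in the liver channel. Male controls read 4.51, 4.18, 4.12 and 4.17 and UV-Titan males 4.32, 4.10, 4.51 and 3.89, and overlapped. Cfp, properdin, which stabilises the convertase and is made by myeloid cells, was 0.21 ± 0.09 log2 in females and -0.03 ± 0.09 in males.

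Terminal components were higher by ratio in females but mostly not in the liver channel. By ratio 6 of 6 were higher, with a median of 0.24 log2, and in the liver channel 2 of 6, with a median of -0.06. Hc, the C5 gene, was 0.45 ± 0.24 log2 by ratio and 0.11 ± 0.10 in the liver channel, against -0.30 ± 0.21 for the reference. C6, a component of the attack complex, and C8a, C8b and C8g, the subunits of C8, were between 0.07 and 0.28 log2 by ratio. C9, the pore-forming component, was 0.29 ± 0.13 log2 by ratio and -0.14 ± 0.15 in the liver channel. C9 was dim: its raw liver signal was 104 to 184, well above background on 14 of 16 arrays, and its reference signal was so on 1.

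Among the regulators, Clu, clusterin, which blocks assembly of the attack complex, did not overlap between the female groups. Clu read 2.59, 2.77 and 2.75 in the female controls and 2.90, 3.19, 3.06, 2.95 and 3.00 in the UV-Titan females, and differed by 0.32 ± 0.12 log2 (SE; limma adjusted p = 0.694), or 0.20 ± 0.13 in the liver channel. In males it was 3.02, 2.94, 2.64 and 2.91 in controls and 3.10, 2.84, 3.07 and 2.55 in UV-Titan. Serping1, the C1 inhibitor, read 4.04, 4.10 and 4.07 in female controls and 4.52, 4.97, 4.48, 4.29 and 4.49 in UV-Titan females. The 3 controls lay close together and below each UV-Titan female. Serping1 differed by 0.48 ± 0.18 log2 (SE; limma adjusted p = 0.696) by ratio but by 0.10 ± 0.10 in the liver channel and, for the reference, by -0.36 ± 0.18. Male values were 4.98, 4.53, 4.30 and 4.58 in controls and 4.62, 4.28, 4.93 and 4.01 in UV-Titan, and the groups overlapped.

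**Figure D3:**
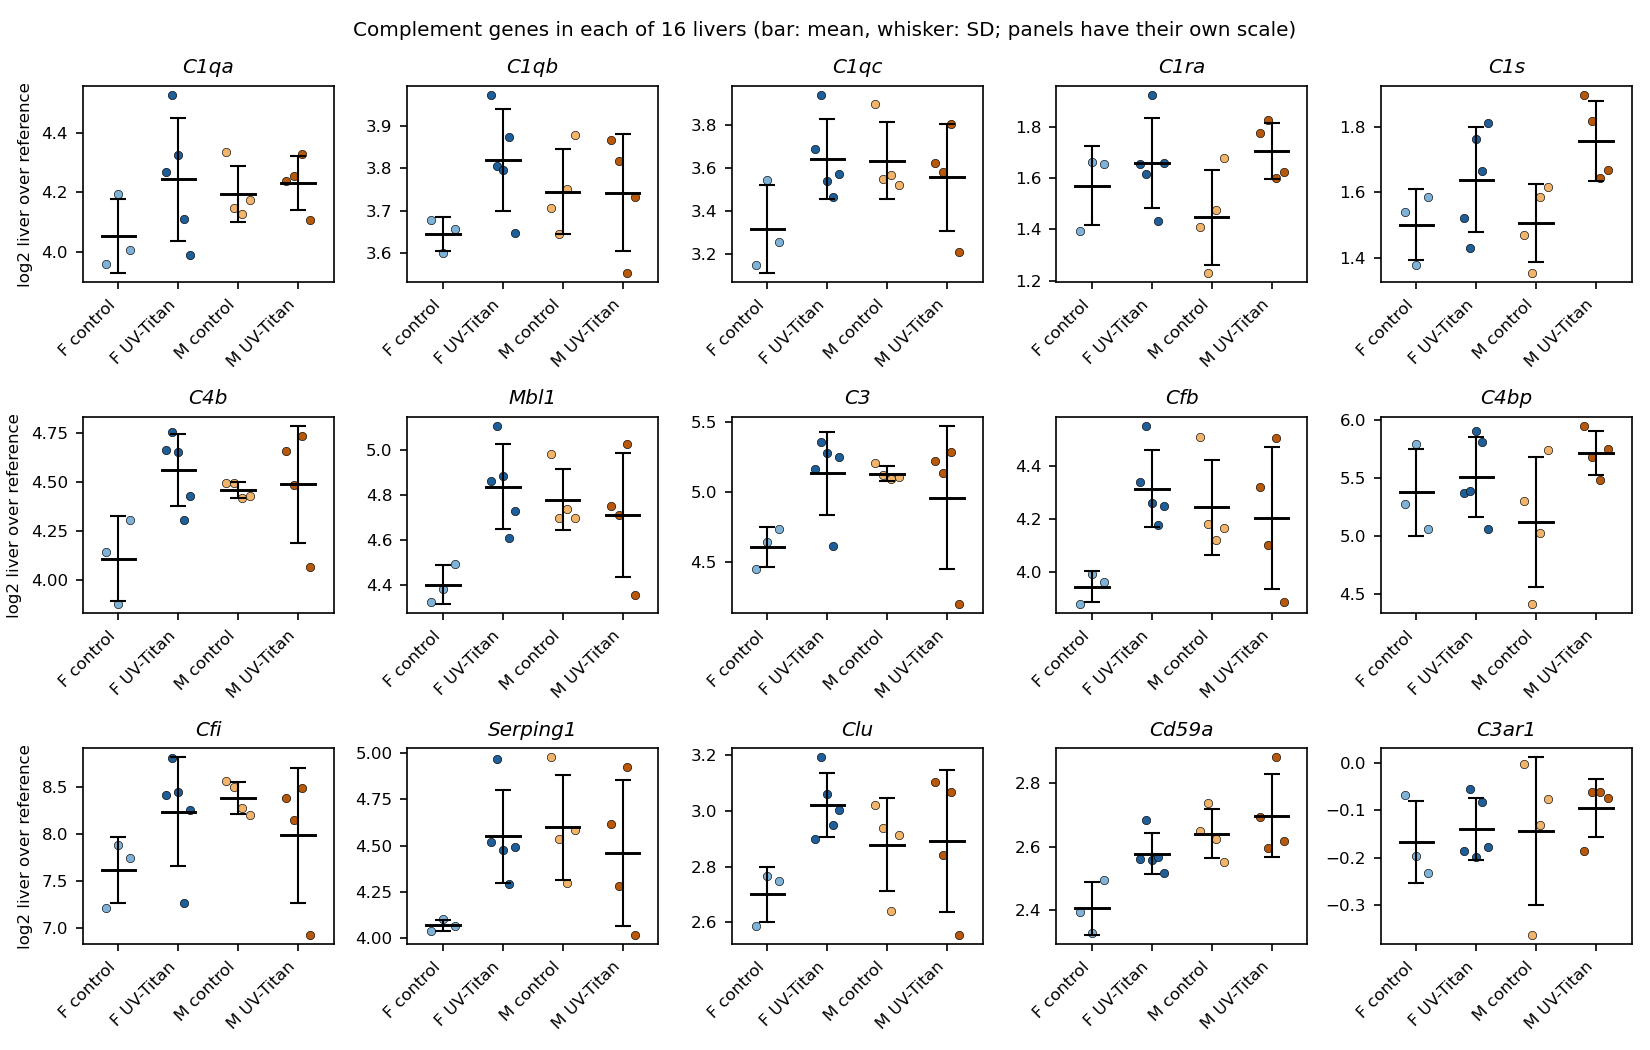
Log2 liver over reference (y axis, own scale in each panel) of 15 genes in the 4 groups (x axis, F female, M male); points are livers, bars the mean and whiskers the SD. The UV-Titan females lie above the female controls for Mbl1, Cfb, Clu, Serping1 and Cd59a, and C4bp in male controls spreads from 4.41 to 5.74.

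In male offspring there was no common direction. By ratio 12 of 28 were higher, against 56.6% of all genes, with a median of -0.02 log2, and in the liver channel 15 of 28, against 50.4%, with a median of 0.03. Limma called 0 of 28 at an adjusted p below 0.05 (0% of all genes), with 0.951 the lowest. Unadjusted p was below 0.05 for 3 members, all higher, against 3.12% of genes: C1s, C4bp and C1ra. The groups did not overlap for 1 member, C1s, against 1.91% of genes. In the liver channel 2 members had an unadjusted p below 0.05, against 3.24% of genes: C4bp, which was higher, and Fcna, which was lower (-0.27 ± 0.11 log2). Of the other members Cfi, C3, Hc and Serping1 were lowest by ratio. Without UV-Titan male 17, 24 of 28 were higher, and without male control 31, 18 were, against 55.8% and 57.2% of all genes. The count at an unadjusted p below 0.05 was 0 without male control 33 and 0 without UV-Titan male 3. The shares of all genes there, in either direction, were 2.92% and 6.21%, against 4.94% with all livers.

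C1s read 1.47, 1.35, 1.58 and 1.62 in the male controls and 1.90, 1.82, 1.64 and 1.67 in the UV-Titan males, with each UV-Titan male above each control. The difference was 0.25 ± 0.09 log2 (SE; limma adjusted p = 0.951) by ratio and 0.31 ± 0.16 in the liver channel. Its second probe gave 0.17 log2. Female values of C1s were 1.54, 1.38 and 1.59 in controls and 1.52, 1.43, 1.76, 1.67 and 1.81 in UV-Titan, and overlapped.

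C1ra, the partner of C1s, read 1.41, 1.23, 1.47 and 1.68 in the male controls and 1.77, 1.83, 1.60 and 1.62 in the UV-Titan males. Replicate 43 of the controls fell within the UV-Titan range and the other 3 controls below it. The difference of C1ra was 0.26 ± 0.11 log2 (SE; limma adjusted p = 0.951) by ratio, 0.23 ± 0.13 in the liver channel and 0.20 by its second probe. Female livers had 1.39, 1.66 and 1.66 in controls and 1.66, 1.62, 1.92, 1.43 and 1.66 in UV-Titan. Close copies of both genes exist, C1rb and C1s2, which the probes may not separate.

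C4bp, the C4b-binding protein that limits the classical convertase, had the largest difference in males. Its ratio was 5.30, 4.41, 5.02 and 5.74 in the male controls and 5.95, 5.68, 5.48 and 5.75 in the UV-Titan males. Control replicate 33 was the lowest liver of all 16, and control replicate 43 lay among the UV-Titan males. The difference of C4bp was 0.60 ± 0.24 log2 (SE; limma adjusted p = 0.951) by ratio, 0.62 ± 0.23 for liver alone and 0.05 ± 0.06 for the reference, so ratio and liver channel gave a like size. Without control replicate 33 the ratio change was 0.36 log2, and without replicate 43 it was 0.80. Replicate 33 is one of the livers with pancreas transcripts, whose part in the value was not tested. Female values of C4bp, 5.27, 5.79 and 5.06 in controls and 5.37, 5.38, 5.91, 5.81 and 5.06 in UV-Titan, overlapped.

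Without the 3 arrays that carried pancreas, muscle or fat transcripts, 9 of 28 members were higher in males and 0 had an unadjusted p below 0.05, against 1.26% of all genes in either direction. In females, whose fit shares only the spread with those arrays, 28 of 28 stayed higher.

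Hepatocyte-made and macrophage-made genes both had higher means by ratio in females. The macrophage-made genes tested were C1qa, C1qb, C1qc and C3ar1, the last close to background. Fcna, Cfp, Cd55 and Cd59a were counted apart as other sources, and the remaining tested members as hepatocyte-made. By ratio in females 20 of 20 hepatocyte-made genes were higher (median 0.31 log2) and 4 of 4 macrophage-made genes (median 0.18). For liver alone these were 14 of 20 (median 0.11) and 2 of 4 (median 0.01). In males 8 of 20 hepatocyte-made genes were higher by ratio (median -0.03) and 2 of 4 macrophage-made (median 0.02), and in the liver channel 13 of 20 (median 0.06) and 1 of 4 (median -0.06). With Fcna and Cfp added, the macrophage-made mean differed in females by 0.19 log2 by ratio and 0.01 for liver alone. Without them it differed by 0.18 and 0.02. In males these were -0.02 and -0.08 log2 with them, and 0.00099 and -0.04 without.

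The hepatocyte-made minus macrophage-made difference of medians in females was 0.12 log2 by ratio, 0.10 for liver alone and -0.10 for the reference. The mean of the hepatocyte-made genes in each liver, relative to its mean over all 16, was -0.36, -0.07 and -0.21 in female controls and 0.11, 0.29, 0.18, -0.09 and -0.01 in UV-Titan females by ratio. For the macrophage-made genes the means lay between -0.17 and -0.06 in controls and between -0.08 and 0.21 in UV-Titan females. In both sets UV-Titan female 8 was the highest, and replicates 16 and 21 were the lowest 2 of the UV-Titan females in both. In the reference channel the hepatocyte-made mean was 0.13, 0.14 and 0.23 in female controls and -0.14, -0.20, 0.07, 0.30 and -0.15 in UV-Titan females, where replicate 16 was above each control.

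**Figure D4:**
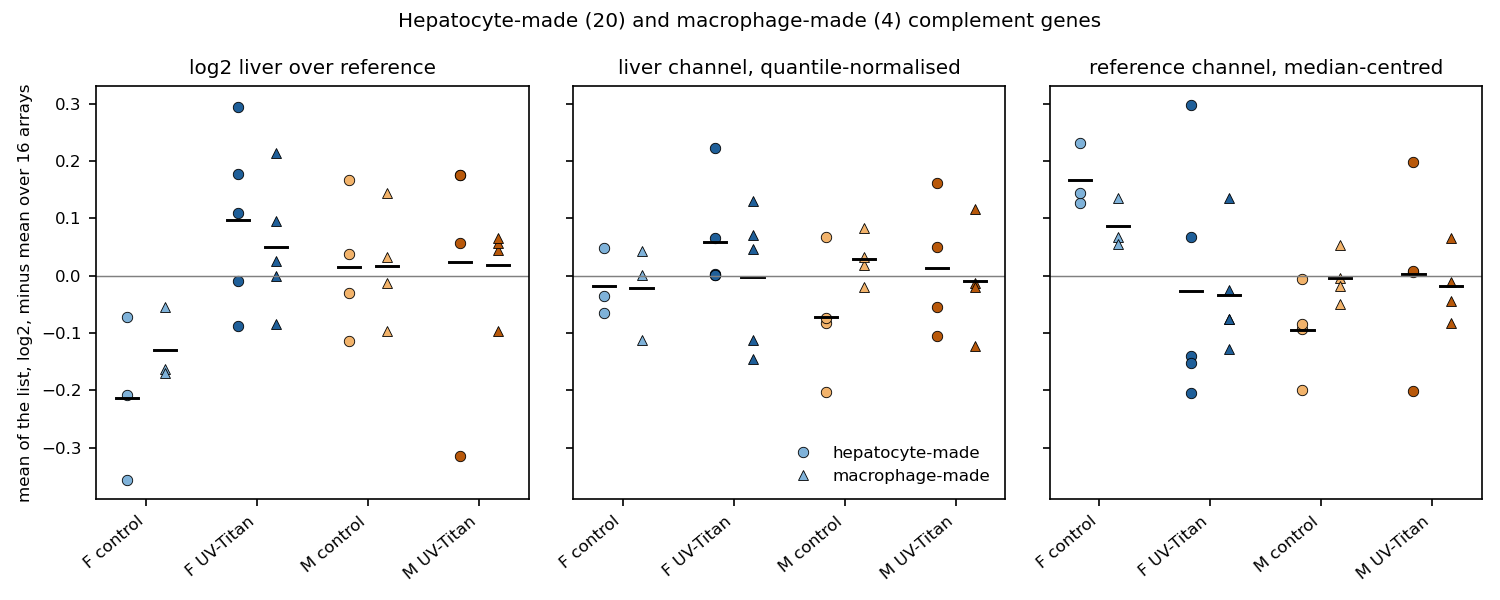
Mean of 20 hepatocyte-made (circles) and 4 macrophage-made (triangles) genes in each liver (log2 relative to the mean over 16 arrays, y axis) by group (x axis), for the ratio, the liver channel and the reference channel; bars are group means. The female controls have the lowest group mean by ratio, although UV-Titan male 17 lies below 2 of the 3 for the hepatocyte-made genes, and the 4 groups overlap in the liver channel.

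Known macrophage markers gave a check on cell content. All 12 markers of macrophages and Kupffer cells were well above background on 16 arrays, and 11 of 12 were higher by ratio in females (median 0.22 log2), against 8 of 12 in the liver channel (median 0.06). Their summed liver signal ranged from 158551 to 191094 in female controls and from 145883 to 328762 in UV-Titan females, where replicate 10 was highest. Marco alone gave 159596 of that highest sum, against at most 69305 in any other liver. Cd5l, Adgre1, Timd4 and Folr2 were also highest in replicate 10. Clec4f, Csf1r, Cd68, Lyz2, Cd163, Msr1 and Mpeg1 were highest in other livers. In males the sum ranged from 153687 to 184347 in controls and from 145443 to 189195 in UV-Titan. The part of macrophage content in the C1q values was not tested.

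Coagulation factors, another set of proteins secreted by hepatocytes, had a like pattern in females, with 18 of 18 higher by ratio (median 0.40 log2) and 15 of 18 in the liver channel (median 0.11). Markers of megakaryocytes, the platelet precursors, differed by nearly as much in the liver channel as by ratio, with 5 of 5 higher in both (medians 0.54 and 0.55 log2), and their part in the members' values was not tested. The mean of the hepatocyte markers differed in females by 0.56 log2 by ratio, -0.44 for the reference and 0.06 for liver alone. For the mean of the members these were 0.27, -0.17 and 0.06 log2. Among the hepatocyte markers Alb, the gene of the abundant serum protein albumin, was 0.87 ± 0.34 log2 by ratio and -0.89 ± 0.35 for the reference. For liver alone after quantile normalisation it was -0.07 ± 0.06 log2, and the part of that normalisation in the small liver value was not tested.

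Slides held arrays of both groups, which allowed comparison within a slide. The mean of the 28 members in UV-Titan minus control females was 0.24, 0.17 and 0.35 log2 by ratio within slides 5, 4 and 2. For liver alone those differences were 0.03, 0.07 and 0.19 log2. Males gave 0.07, 0.0019 and 0.12 by ratio within slides 4, 3 and 1. With slide as a block in limma 28 of 28 members were higher in females, 16 with an unadjusted p below 0.05 against 7.01% of genes in either direction, and the lowest adjusted p of a member was 0.22. The block gave 0.39 log2 for C3, 0.42 for Cfi and 0.35 for Mbl1.

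Whether exposure acted unequally by sex was tested as female effect minus male effect, which was above 0 for 23 of 28 members by ratio, against 52.4% of genes, and for 16 in the liver channel, against 50.2%. Limma called 0 of 28 members (0% of all genes), with 0.98 the lowest adjusted p. Unadjusted p was below 0.05 for 8 members, all with the higher value in females, against 2.53% of genes. They were Mbl1 (0.50 ± 0.18 log2, SE), C3 (0.70 ± 0.28), Serping1 (0.62 ± 0.26), Cfb (0.41 ± 0.17), Fcna (0.30 ± 0.13), C4b (0.42 ± 0.19), Cfi (1.03 ± 0.46) and C1qc (0.41 ± 0.19). In the liver channel 0 of 28 were below an unadjusted p of 0.05, against 2.84% of genes. There C4b was 0.44 ± 0.32 log2, C3 0.02 ± 0.09 and Cfi 0.05 ± 0.12. The count of 8 was 2 without female control 25, male control 31 or UV-Titan male 17, and 3 without UV-Titan female 8. It was 4 without UV-Titan male 4, 5 without UV-Titan female 2 or 10, and 12 without UV-Titan male 5. The shares of all genes at that p, in either direction, were 2.61%, 3.48%, 2.68%, 3.42%, 3.58%, 3.91%, 3.18% and 5.26% in that order. With all livers the share was 4.25%.

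Averaged over the sexes, 28 of 28 members were higher after UV-Titan by ratio, against 60.5% of all genes, with a median of 0.14 log2, and 20 of 28 in the liver channel, against 49.6%, with a median of 0.03. Limma called 0 of 28 (0% of all genes), with 0.533 the lowest adjusted p, that of C1s at 0.19 ± 0.07 log2. At an unadjusted p below 0.05 there were 4 members, all higher, against 5.52% of genes: C1s, C4b, C1ra and Cd59a. For liver alone 3 were below it, of which 2 were higher, against 2.96% of genes in either direction. The count of 4 was 2 without female control 25 or UV-Titan male 3 and 7 without UV-Titan female 21. It was 8 without male control 31 and 10 without UV-Titan male 17. The shares of genes in either direction were 7.69%, 6.85%, 7.88%, 7.18% and 8.37% in that order, against 7.05% with all livers. The count was 7 with slide as a random block, 9 with slide as a fixed block and 12 with scan day as a block. For these blocks the shares were 8.51%, 8.82% and 9.34%, against 7.05% in the fit without a block.

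Between the sexes no member passed the adjusted threshold. By ratio 21 of 28 were higher in males, against 48.6% of all genes, with a median of 0.07 log2, and in the liver channel 9 of 28, against 47.3%, with a median of -0.04. Limma called 0 of 28 members, against 0.0464% of all genes, and the lowest adjusted p of a member was 0.981. Only Cd59a had an unadjusted p below 0.05 by ratio, being higher, against 2.34% of genes, and it alone did in the liver channel, against 2.18%. Without UV-Titan male 17 the count by ratio was 7, and without UV-Titan female 8 it was 2, against 6.4% and 3.62% of genes in either direction. With the liver channel centred on its median, 25 of 28 were higher in males, against 69.9% of genes.

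Cd59a, the membrane protein that stops the attack complex on the body's own cells, read 2.39, 2.33 and 2.50 in female controls and 2.56, 2.69, 2.56, 2.57 and 2.52 in UV-Titan females. Male controls had 2.65, 2.74, 2.62 and 2.55 and UV-Titan males 2.69, 2.59, 2.88 and 2.62. The female controls were the 3 lowest of the 16 livers, apart from which females and males overlapped. The male minus female difference was 0.18 ± 0.05 log2 (SE; limma adjusted p = 0.981) by ratio, 0.19 ± 0.08 in the liver channel and 0.14 by a second probe. Within females the exposure difference of Cd59a was 0.17 ± 0.07 log2. Serping1, C4b and Mbl1 followed in order of p, with male minus female differences of 0.22 ± 0.13, 0.14 ± 0.10 and 0.13 ± 0.09 log2 by ratio and -0.07 ± 0.07, 0.08 ± 0.16 and 0.04 ± 0.12 in the liver channel. With median centring of the liver channel the Serping1 difference was 0.07 ± 0.17 log2, so its sign turned only after quantile normalisation. Cd55, the other membrane regulator measured, was 0.20 ± 0.18 log2 in females and 0.21 ± 0.18 in males.

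The receptors gave little signal. C3ar1, the receptor for the C3a peptide, read -0.07, -0.20 and -0.23 in female controls and -0.19, -0.06, -0.20, -0.08 and -0.18 in UV-Titan females. In males it read -0.0033, -0.36, -0.13 and -0.08 in controls and -0.19, -0.06, -0.06 and -0.07 in UV-Titan, and the groups overlapped in both sexes. Its raw liver signal was 122 to 152 with local backgrounds of 79 to 87, so its level is close to the background although it was marked well above it on 16 arrays. UV-Titan minus control was 0.03 ± 0.08 log2 in females and 0.05 ± 0.07 in males (SE; limma adjusted p = 0.982 and 0.968).

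C5ar1 was not well above background in liver on any of 16 arrays. Its raw liver signals were 97.5, 99.8 and 101 in female controls and 96.9, 102, 99, 97.4 and 101 in UV-Titan females, and 95.3, 98.5, 95.5 and 90.3 in male controls and 101, 95.5, 98.7 and 94.3 in UV-Titan males. No group stood apart, and with signals at background the groups were not compared.

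Cfd, factor D, a protease that fat cells secrete, was bright in a single liver. Raw liver signal was 102, 95, 10353 and 96.5 in the UV-Titan males, where replicate 5 held the high value. The other groups had 120.4, 92.6 and 95.5 in female controls, 96.2, 96.5, 111, 90.7 and 98.5 in UV-Titan females and 91.9, 90.4, 96.7 and 96.2 in male controls. Cfd was well above background on 2 arrays, UV-Titan male 5 and female control 25. The same liver had the highest signal of the adipocyte genes Adipoq (1034, against at most 135 elsewhere), Plin1 (251, at most 107), Fabp4 (20189, at most 16686) and Retn (208, at most 128). Of the other adipocyte markers, Lep was not above background there, and Cidec was highest in male control 33. Summed over the 6 markers, the adipocyte signal was 16178 to 22706 in UV-Titan males, 10129 to 18342 in male controls, 8932 to 16616 in UV-Titan females and 9692 to 16231 in female controls. Male UV-Titan 5 also had a summed muscle marker signal of 10621, against at most 2221 in any other liver, and the part of such tissue in the Cfd value was not tested.

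**Figure D5:**
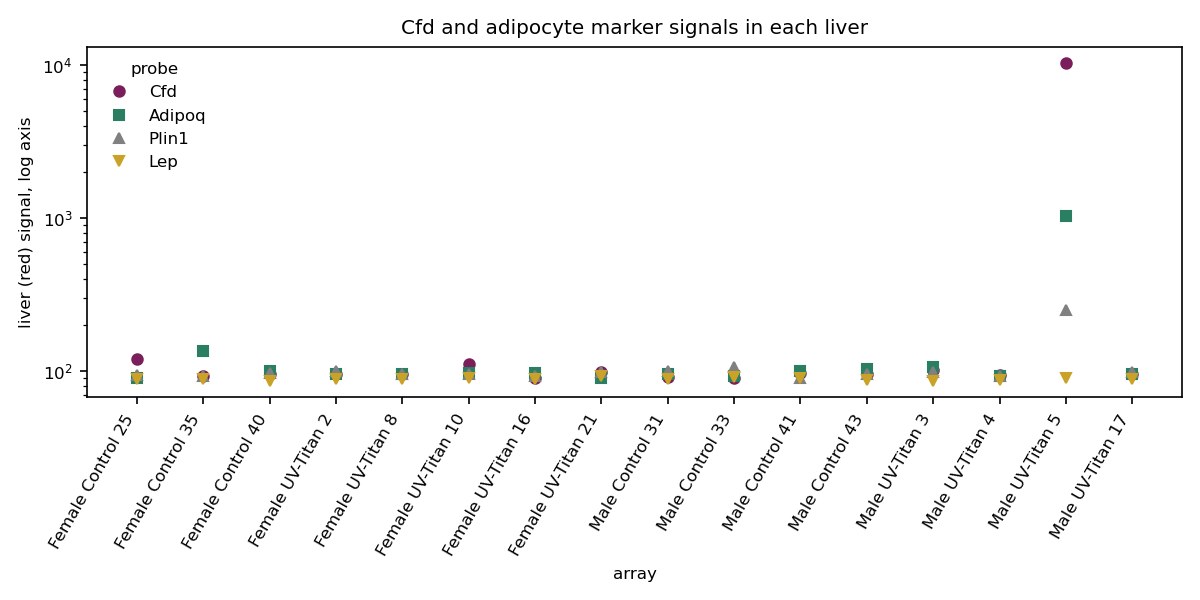
Raw liver signal (log y axis) of Cfd and the adipocyte genes Adipoq, Plin1 and Lep in each of the 16 livers (x axis). Cfd, Adipoq and Plin1 are high in UV-Titan male 5, where Cfd reached 10353, while Adipoq stays at or below 135 and Plin1 at or below 107 in the other livers.

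Spread between livers also differed among the members. Over all 16 arrays the range of the log2 ratio was smallest for C3ar1 (0.36) and C1qb (0.42) among the tested members and largest for Cfi (1.90) and C4bp (1.54). In the quantile-normalised liver channel the SD over 16 arrays was 0.10 log2 for Cfi and 0.41 for C4bp, against 0.55 and 0.41 for the ratio. The Cfi probe ranked 169 of 41174 probes in liver signal, and the part of the normalisation in its small SD was not tested.

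Other genes of the pathway were a list of 33, of which 31 were on the array and 27 tested. By ratio 21 of 27 were higher in females and 12 in males, against 58.5% and 56.6% of all genes. In females 10 were higher and 1 lower at an unadjusted p below 0.05 (5.4% and 1.27% of all genes), and in males 4 were higher (3.12% of all genes). None had an adjusted p below 0.05, the lowest being 0.498 in females. Fcnb, a ficolin of granulocytes, was 0.49 ± 0.13 log2 (liver channel 0.38 ± 0.15) in females. Colec11, a soluble collectin that starts the lectin route, was 0.48 ± 0.15 (liver channel 0.09 ± 0.08), and Itgam, the alpha chain of complement receptor 3, 0.36 ± 0.12 (liver channel 0.27 ± 0.11). In males the smallest p belonged to Itgb2, the beta chain of that receptor, at 0.17 ± 0.05 log2, Itgam at 0.30 ± 0.11 and Susd4, a regulator of the convertases, at 0.35 ± 0.13. Male minus female differences were 0.24 ± 0.09 for Fcnb, 0.28 ± 0.11 for Colec11 and 0.18 ± 0.08 log2 for Itgam. All 10 granulocyte markers were also higher in UV-Titan females, by a median of 0.52 log2 by ratio and 0.41 in the liver channel. The mean over these markers was higher in the UV-Titan female within each of the 3 slides, by 0.40, 0.37 and 0.52 log2 by ratio. Their summed raw signal, most of it from S100a9, was 277105 to 320569 in female controls and 280347 to 399871 in UV-Titan females. The part of granulocytes in the Fcnb and Itgam values was not tested.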

How the data were processed

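Liver RNA of 16 offspring was measured on two-colour Agilent mouse arrays. The authors deposited each array's scanner output, read with Agilent Feature Extraction per the labels' protocols, with mean spot intensity and local background intensity in both channels. The deposited value table holds log2 ratios of red over green for the same arrays, and no label or header states its normalisation or centring. Samples were grouped by the sex and treatment in their titles.

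Spots marked as outliers (90 to 135 per array) were left out. Background was corrected with normexp (offset 50), and ratios were normalised with loess within arrays, with control spots at weight 0 in the loess. A probe was tested if well above background in liver on at least 3 arrays, and a gene was represented by its brightest probe in liver (19382 genes). Each of the 4 groups had a mean in 1 limma fit (limma 3.58.1, R 4.3.3, two-sided, Benjamini-Hochberg over all genes tested, threshold 0.05). The scripts were tested on simulated data. The liver channel alone was quantile-normalised or centred on each array's median. Names follow the array's annotation, updated through accessions for 12374 tested genes, and some may be old.

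The members and lists were chosen with earlier results of these data known. Values in every array were given for the 4 members with the smallest unadjusted p in the female, male and sex comparisons, any past the threshold, the C1q chains, C3, both receptors and, chosen after their values were seen, Cfd and the 2 channels of Cfi. Of the other pathway genes the 3 with the smallest p were named. C2 in the liver channel and Alb were also chosen after their values were seen. Alternatives covered background correction, normalisation, quantity, filter, probe choice, blocks for slide and scan day, array weights and leaving out arrays.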

Additional observations from a re-analysis of the deposited data

Results flagged for a closer look

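In groups of 4 or 5 livers, 9 values of the members stood farther from the rest of their group than Dixon's 95% limit for the log2 ratio, out of 87 groups of values tested. Chance flags about 1 in 20 such groups. Male control 31 was high for Mbl1 (4.98, next 4.74), Cfb (4.51, next 4.18) and C1qc (3.90, next 3.57), and this liver carried pancreas transcripts. UV-Titan male 17 was low for C3 (4.20, next 5.13) and for Fcna (3.29, next 3.60). UV-Titan female 16 was low for C3 (4.62, next 5.16), and both of these arrays were on slide 5 and had a bright C3 reference signal. UV-Titan female 10 was high for Cd55, a membrane protein that speeds decay of the convertases (3.03, next 2.30). It also had the highest summed macrophage marker signal, of 328762, to which Marco alone gave 159596. UV-Titan male 5 was high for Cfd (5.49, next 0.18), with fat and muscle transcripts in the same liver. UV-Titan male 3 was low for C3ar1 (-0.19, next -0.07), a probe close to background. The part of other tissues and of the reference channel in these values was not tested.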

How the results depend on the processing

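Of the results that answer a comparison, 442 values under an alternative setting were scored as the same and 23 as moved. A median was scored the same if its distance from the main value was below the SD between replicates. That SD was 0.14 log2 for the members and 0.10 for hepatocyte-made minus macrophage-made. A count was scored the same if equal to the main count or within a set fold of it. Sign was not part of this score, and the median of the members in males ran from -0.051 to 0.074 log2. Of the values of single genes, 912 kept their direction and 18 reversed. Part of the 442 and of the 912 was fixed in advance. Leaving out a female liver cannot change a male difference, or the reverse, and Aquantile after loess changes no log ratio. None of the members passed the adjusted threshold under any alternative run. With the liver channel alone after quantile normalisation, the median of the members was 0.062 log2 in females and 0.035 for the female minus male effect. The hepatocyte-made minus macrophage-made median was 0.12 in males and -0.043 for the female minus male effect in that channel. In the reference channel it was -0.10 in females, 0.091 in males and -0.17 for the female minus male effect. The cause was not tested.

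Among all genes, the count past the threshold was 1 without background correction (average over the sexes), 1 with Agilent processed signals (males), and 3 for male against female with probes well above background on all 16 arrays. In females it was 1 with slide as a block, 1 with scan day as a block and 6 with array weights. For the average it was 1 with slide as a block, 1 with slide as a random block, 10 with scan day as a block and 9 with array weights. Leaving out 1 array in turn gave 0 to 1 gene in females and 0 to 11 for the average.

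Reversed values in the quantile-normalised liver channel were C1qa -0.0066 and C1qc -0.024 in females, C1qa -0.071 in males and Serping1 -0.069 in males against females, and C1qa was -0.14 in males after median centring. C3ar1 in females was -0.0029 in the deposited table. C1qb in males was 0.0203 with Agilent processed signals, 0.0040 in the deposited table and 0.022 with array weights. C3ar1 in males was -0.0038 without the 3 arrays with other tissue. Leaving out 1 array in turn gave -0.0072 to 0.075 for C3ar1 in females, and in males -0.026 to 0.094 for C3ar1, -0.044 to 0.061 for C1qb, -0.16 to 0.037 for C1qc and -0.28 to 0.082 for C3. Aquantile after loess leaves log ratios as they are.

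No paired analysis was possible because the groups compared share no replicate numbers, so the only pairing available was by slide: it was used as a block, and the differences within slides are given with the results. Dim probes limit C9, C3ar1, C5ar1 and Cfd, and C3 is too bright for quantile normalisation to show a difference in its liver channel.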
